A study of Mus musculus with 16 samples.

Results

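The Gnas complex locus was read across 75 kb of mouse chromosome 2 (chr2:174105000-174180000 of mm9), in which 371 CpGs of the 1320646 in the series were covered by at least 10 reads in at least 1 of the 16 libraries. The CpGs were assigned to 4 segments named after the transcription starts that they surround, and 71 of the 371 were covered in all 16 libraries. The libraries came from reduced representation bisulfite sequencing (RRBS), in which unmethylated cytosines are converted, so that the percentage of unconverted reads at a CpG is its methylation. There were 2 replicates in each of 8 conditions of E14, an embryonic stem cell line of the mouse (129/Ola). The mESCs were kept in serum and LIF, and the EBs described below were formed in the same medium without LIF. YP-mESCs were young-passage cells (passage 14 in the label) and OP-mESCs were old-passage cells. OP-S33Y #1 and OP-S33Y #2 were old-passage cultures of 2 clones that overexpress a stable S33Y-mutated β-catenin, made from young-passage cells, so that each is 1 clone. The last 4 conditions were mESCs and embryoid bodies (EBs) at day 8, transduced with a control shRNA (shCtrl) or with an shRNA against β-catenin (shβcat #1). The study calls the replicates of its mESC lines biological, and neither it nor the labels say how those of the shRNA conditions were made or whether any were separate cultures, so that each p-value measures the spread between these libraries only.

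The Gnas locus is one of the imprinted domains of the mouse, in which several first exons splice onto the same downstream exons and the alleles differ by parent of origin. Nesp encodes the neuroendocrine secretory protein NESP55 and is transcribed from the maternal allele, while its promoter is methylated on the paternal allele, a mark that is gained after fertilisation. Gnasxl, which encodes the extra-large G-protein alpha subunit XLαs, and the antisense transcript Nespas start from a segment that is methylated on the maternal allele from the oocyte on, and exon 1A, the first exon of a noncoding transcript, carries a further maternal mark. Nesp and Gnasxl are therefore imprinted in opposite directions. The promoter of Gnas itself, which encodes the stimulatory G-protein alpha subunit, lies in a CpG island without methylation on either allele. The files give the mean over all cells and both alleles, so that a loss on 1 allele in all cells and a loss on both in some of them cannot be told apart.

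The Nesp segment ran from 1 kb before to 5 kb after the Nesp start (chr2:174108821-174114821) and held coding exon, UTR and the exons of Nespas on the other strand. The Gnasxl segment was the imprinting control region (ICR) that the study lists for Gnas (chr2:174119863-174126564), with the starts of Nespas and Gnasxl and coding exon of Gnasxl. The exon 1A segment (chr2:174152071-174154071) and the Gnas promoter segment (chr2:174154507-174156507) ran for 1 kb on either side of the annotated starts, over exon and UTR of the noncoding transcript and over exon 1 of Gnas. They held 63, 120, 30 and 123 of the covered CpGs, and 35 lay elsewhere in the region. The locus was chosen by its methylation values in OP-S33Y #2, where the Gnas ICR had been seen to be high, so that the values of that clone are described here without a test.

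The following stretches are shown because within 100 bases and outside annotated UTRs they hold the most CpGs of each segment that were covered in at least 15 libraries. They are not averages of their segments, whose levels are given below. They are read from the plus strand of mm9 (NCBIM37), with the covered CpGs in capitals.

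Nesp, chr2:174110202-174110257, in coding exon: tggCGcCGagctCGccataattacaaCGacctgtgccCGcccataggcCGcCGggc
Gnasxl, chr2:174125396-174125482, in coding exon: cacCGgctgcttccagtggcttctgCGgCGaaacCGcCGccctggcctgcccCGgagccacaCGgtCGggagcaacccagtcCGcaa
exon 1A, chr2:174152429-174152493, in an intron of the longer transcripts, upstream of the exon 1A start: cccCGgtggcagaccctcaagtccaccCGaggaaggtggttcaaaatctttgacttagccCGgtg
Gnas promoter, chr2:174155982-174156078, in an intron of Gnas: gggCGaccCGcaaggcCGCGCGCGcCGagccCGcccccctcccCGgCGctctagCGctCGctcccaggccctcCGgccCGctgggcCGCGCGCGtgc

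In YP-mESCs the 7 capital CpGs of the Nesp stretch averaged 9.25% and 3.27% in the 2 replicates and those of the Gnasxl stretch 41.2% and 35.9%. The 3 of the exon 1A stretch averaged 33.5% and 25.5%, and the 18 of the Gnas promoter stretch 0.126% and 0.121%. In OP-S33Y #2 the Gnasxl stretch was at 83.7% and 88.8%, with 4 of its 9 CpGs covered in replicate 2, and the Nesp stretch was at 0% over 152 reads in the single replicate that covered it. In EBs of shCtrl the Nesp stretch had 24.6% ± 10.6 (SD, n = 2) and the exon 1A stretch 61.1% ± 1.84, against 0.849% ± 0.409 and 27.2% ± 1.53 in mESCs of shCtrl.

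ZFP57, a KRAB zinc finger protein that binds a methylated hexanucleotide and is known to maintain the methylation of ICRs, recognises TGCCGC. On both strands, this hexanucleotide was found 14 times in the Gnasxl segment and 2 times in each of the others. Of all tiles of the genome with the length of the Gnasxl segment, 29.8% held it at least once and 0.00131% held it 14 times or more. For the 2001 bases of exon 1A or of the Gnas promoter, 10.9% of tiles held it at least once and 1.5% held it 2 times or more, and for the 6001 bases of Nesp these shares were 27.4% and 7.62%. The hexanucleotide holds a CpG and the tiles were not matched for CpGs, of which the Gnasxl segment has 350. These shares therefore cannot tell the hexanucleotide from CpG density. Only 1 of the 20 CpGs in these matches was covered in all 16 libraries, and the other 4 shown were covered in 15 and were picked after their values were seen. The matches are in capitals, and GCGGCA is the hexanucleotide read from the other strand.

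Gnasxl, CpG at 174124894, chr2:174124881-174124910: gagcccgcagccGCGGCAgtctctgccacc
Gnasxl, CpG at 174124925, chr2:174124910-174124939: cctggcggagccTGCCGCccgggcagcccc
exon 1A, CpG at 174153386, chr2:174153373-174153402: cagcgcttggcgGCGGCAggcagacgggca
Gnas promoter, CpG at 174155616, chr2:174155603-174155632: gcggcggcggcgGCGGCAgcagctcccgcg
Gnas promoter, CpG at 174155978, chr2:174155963-174155992: ccggcccgggagTGCCGCggggcgacccgc

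At the first Gnasxl match, methylation was 45.1% of 71 reads and 51.2% of 43 reads in the YP-mESC replicates and 100.0% of 26 reads in OP-S33Y #2 replicate 1. At the second it was on average 48.7% in YP-mESCs and 92.3% of 13 reads in OP-S33Y #2 replicate 1, and replicate 2 of that clone did not cover either CpG. In OP-mESCs the first and second matches averaged 36.1% and 27.6%, on 17 to 50 reads per library, below both YP-mESC replicates. In OP-S33Y #1 they averaged 45.6% and 46.8%. The match in exon 1A averaged 3.45% in mESCs of shCtrl and 33.8% in EBs of shCtrl. The promoter match that all libraries covered was at 0% in 12 of them and at 1.03% to 3.23% in the other 4. A match is a description of the sequence and not a site shown to be bound.

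In 15 of the 16 libraries the segments had the same order, with Gnasxl above exon 1A, exon 1A above Nesp and Nesp above the Gnas promoter. The exception was OP-S33Y #2 replicate 1, in which Nesp (0.444%) lay below the promoter (0.511%). The level of a segment was the mean of the percentages of its CpGs with at least 10 reads. Gnasxl lay at intermediate values in 7 conditions, from 39.7% ± 3.0 (SD, n = 2) in OP-mESCs to 56.3% ± 6.1 in EBs of shβcat #1, and at 93.3% ± 0.7 in OP-S33Y #2. Exon 1A lay between 12.9% ± 0.6 in OP-mESCs and 22.7% ± 2.2 in OP-S33Y #2 in the 6 mESC conditions, and at 49.1% ± 4.0 and 46.1% ± 0.2 in EBs of shCtrl and shβcat #1. Nesp was at most 5.77% ± 1.10 in mESCs and reached 26.7% ± 0.2 and 29.9% ± 4.3 in the EBs. Gnasxl exceeded exon 1A by 23.4 points ± 1.7 in YP-mESCs and by 70.7 ± 2.9 in OP-S33Y #2. In EBs of shCtrl this gap was 6.34 points ± 7.76, within its spread, with 0.856 in replicate 1 and 11.8 in replicate 2. In OP-S33Y #2, Nesp and the promoter did not differ beyond their spread, at 0.422% ± 0.030 and 0.419% ± 0.130.

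**Figure D1:**
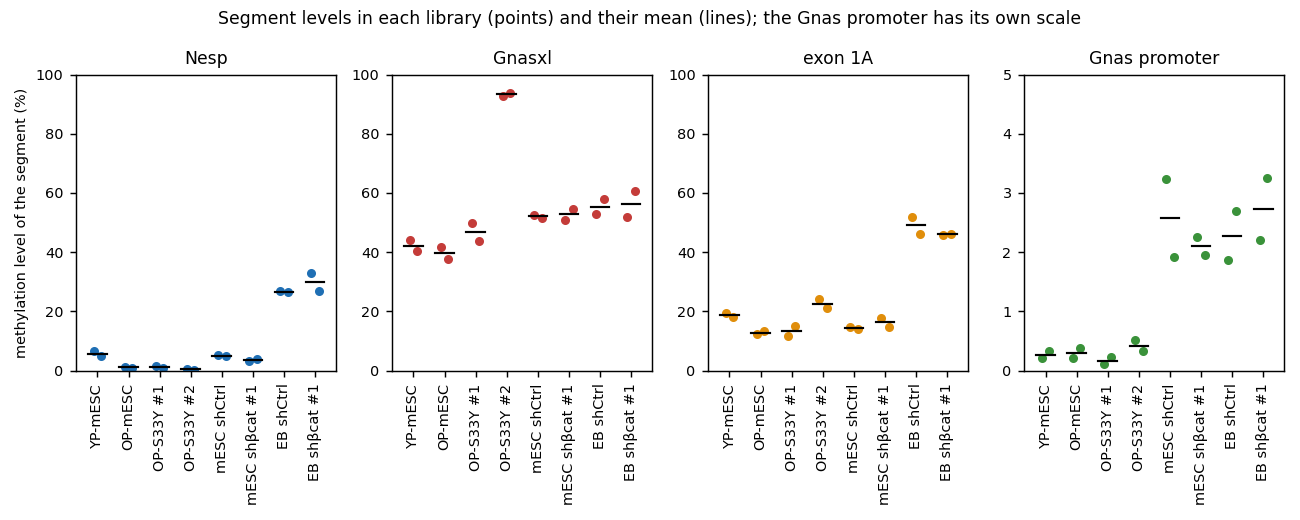
Methylation level of the 4 segments (y axis, percent) in each of the 8 conditions (x axis), with 1 point per replicate and a line at the mean of the 2; the Gnas promoter is drawn from 0 to 5% and the others from 0 to 100%. Gnasxl stands at 93.3% in OP-S33Y #2, and Nesp and exon 1A are highest in the EBs.

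Within the segments the CpGs were not uniform. In YP-mESC replicate 1, 53 of the 54 Gnasxl CpGs lay between 20% and 80%, from 12.8% to 64.3%. In OP-S33Y #2 replicate 1, 56 of 60 lay above 80%, and in replicate 2, 20 of 21. Exon 1A spanned a wide range in every mESC library, such as 3.13% to 61.2% in YP-mESC replicate 1. The CpGs at 174153409, 174153419, 174153429 and 174153450, downstream of its start, averaged 5.41% to 8.19% in YP-mESCs, while the 3 upstream CpGs of the printed stretch averaged 25.4% to 32.1%. These were picked after their values were seen. The Nesp CpGs nearest the start, at 174109724 to 174109771, averaged 0% to 3.11% in YP-mESCs, and the next window downstream, which starts at 174110000, was at 5.95% ± 3.16.

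**Figure D2:**
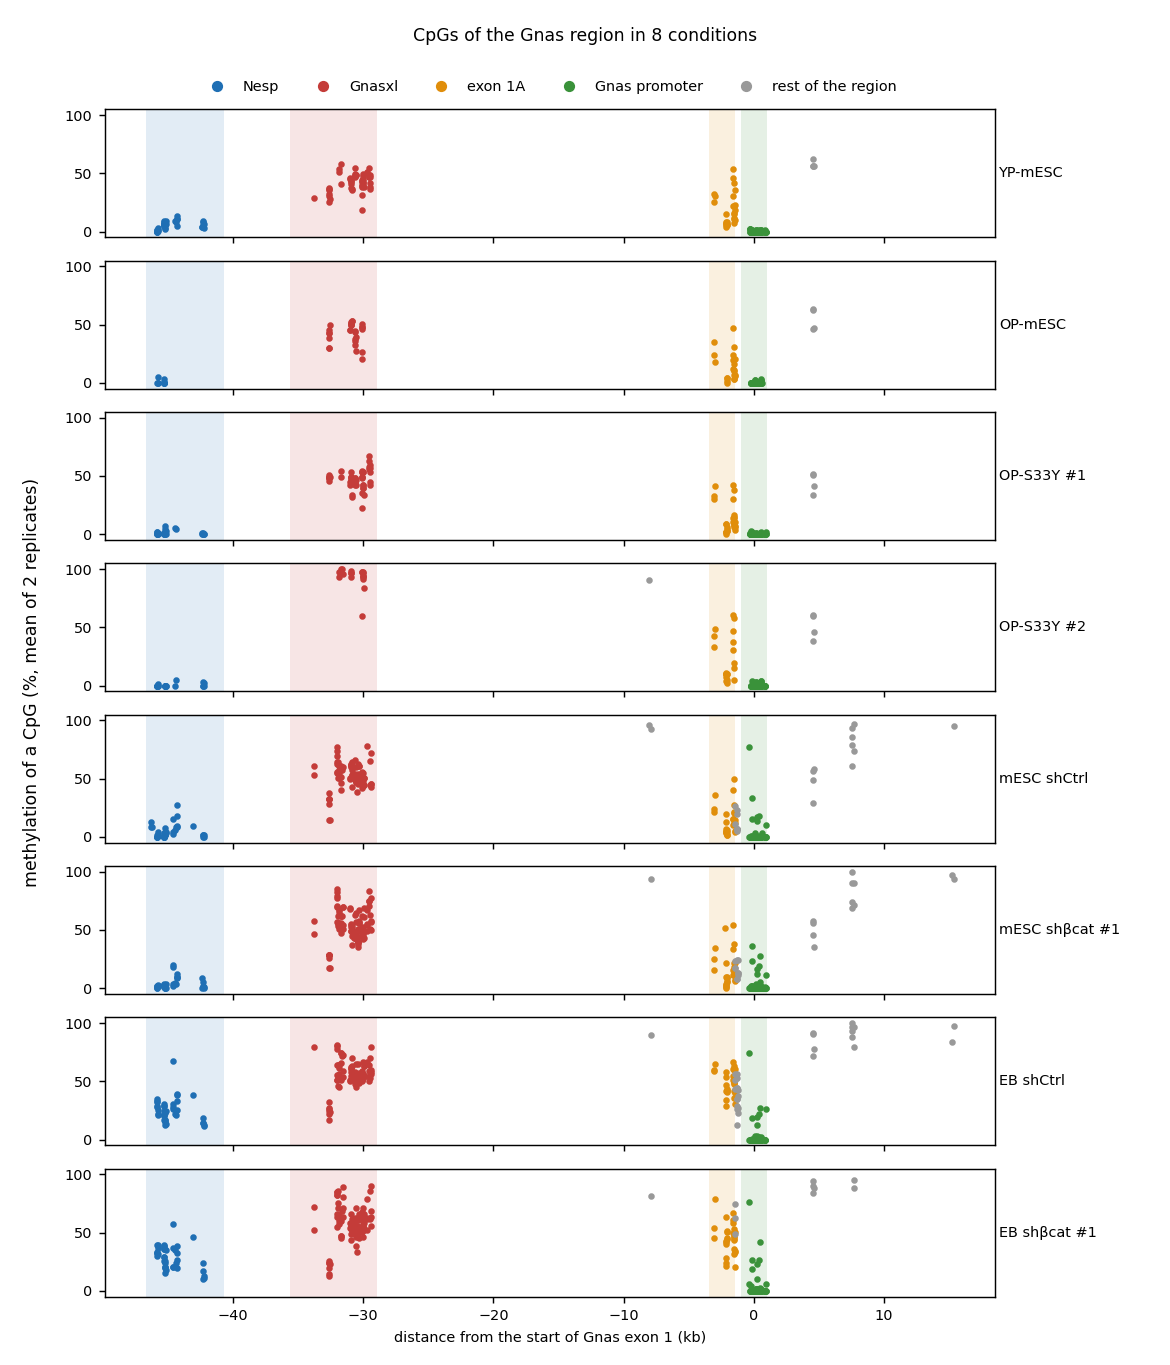
Methylation of each CpG covered in both replicates of a condition (y axis, percent, mean of 2 replicates) against its distance from the start of Gnas exon 1 (x axis, kb), 1 panel per condition, with the segments shaded. Gnasxl CpGs move from the middle of the scale to the top in OP-S33Y #2, and Nesp and exon 1A CpGs move upward in the EBs, with the bulk of Gnas promoter CpGs at the bottom in every panel.

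In OP-S33Y #2 the 2 segments with opposite imprints moved in opposite directions relative to YP-mESCs. For Gnasxl the values were 44.0% and 40.4% in YP-mESCs and 92.8% and 93.8% in OP-S33Y #2, a difference of 51.1 points. Nesp had 6.55% and 4.99% in YP-mESCs and 0.444% and 0.401% in the clone, a difference of -5.35 points. The replicates of the conditions did not overlap in either segment. Exon 1A, with the same parental mark as Gnasxl, was at 19.4% and 18.2% in YP-mESCs and at 24.2% and 21.1% in the clone, 3.89 points higher. The Gnas promoter was at 0.268% ± 0.087 and 0.419% ± 0.130, with overlapping replicates.

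The same was read from CpGs covered in all 4 libraries. All 17 such Gnasxl CpGs were higher in OP-S33Y #2, by 28.2 to 60.8 points. The CpG with the largest rise, at 174124583, had 42.4% of 66 reads and 32.5% of 40 reads in YP-mESCs and 96.6% of 59 and 100.0% of 16 in the clone. The smallest rise was at 174125448, from 34.8% and 27.9% in YP-mESCs to 64.1% of 39 reads and 55% of 20 reads in OP-S33Y #2. Of 22 Nesp CpGs, 18 were lower and 1 was higher, with differences from -9.52 to 0.689 points. The extremes were at 174110352, which had 8.62% and 10.4% in YP-mESCs and 0% of 20 and 15 reads in the clone, and at 174109726. Of 21 exon 1A CpGs, 15 were higher and 6 lower, from 17.3 points higher at 174152456 to 6.69 points lower at 174153956. Of 54 promoter CpGs, 8 were higher and 7 lower, from 4.17 points at 174155331 to -1.47 at 174156346. Of the 12 windows of 1 kb that could be compared, 3 were more than 25 points higher in the clone, all in Gnasxl, while 0.255% of the windows of the genome were. The locus was chosen for this contrast and nothing is read from that share.

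The direction in Nesp and Gnasxl was kept under each alternative that was run, but the size in Nesp was not. The 4 Nesp CpGs that all 16 libraries covered lie close to the start, and there YP-mESCs had 1.32% ± 0.65 and OP-S33Y #2 0.368% ± 0.520, a difference of -0.953 points. The difference of exon 1A came to 17.1 points where CpGs needed 20 reads and to 0.531 points within 500 bases of the start, so that its size rests on which CpGs enter. Over the Gnasxl CpGs the summed reads were 1173 and 295 in this clone, the lowest of the 16 libraries, against 2120 and 2330 in YP-mESCs. Over Nesp they were 525 in each replicate of the clone and 519 in OP-mESC replicate 2.

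The other old-passage conditions were tested. Gnasxl was at 41.8% and 37.6% in OP-mESCs and at 49.8% and 43.8% in OP-S33Y #1. By the quasi-binomial test with dispersion moderated in limma and Benjamini-Hochberg adjustment, neither passed the threshold against YP-mESCs (adjusted p = 0.879 and 0.294), with 95% intervals of the difference in pooled reads from -6.59 to 4.84 points and from -0.0312 to 9.89 points. Nesp, on the other hand, fell in both. It was at 1.41% and 0.757% in OP-mESCs (-4.69 points, adjusted p = 0.000116) and at 1.70% and 0.914% in OP-S33Y #1 (-4.47 points, adjusted p = 6.56e-06), below both YP-mESC replicates each time. The low Nesp level of OP-S33Y #2 therefore stood beside like levels in the other old-passage conditions, each compared with the same YP-mESC libraries. At the 4 CpGs near the start that all libraries covered, YP-mESCs were at 1.32%, so that a fall of this size could not occur there, and the differences were -0.0214 points for OP-mESCs and -0.998 points for OP-S33Y #1 (adjusted p = 0.978 and 0.633). Among the CpGs covered in both conditions, 9 of 11 were lower in OP-mESCs and 28 of 34 in OP-S33Y #1. Part of Nesp was also low in mESCs of shCtrl, made from young-passage cells. There the printed stretch had 0.849% ± 0.409, against 9.25% and 3.27% in YP-mESCs. In pooled reads the windows at 174110000 and 174113000 differed from YP-mESCs by -3.34 and -4.68 points. Those at 174109000 and 174111000 differed by 1.52 and 1.90 points. The whole segment was at 5.28% and 4.91%. Whether the falls in old-passage cells follow passage or the YP-mESC level was not tested.

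Exon 1A was lower in OP-mESCs, at 12.5% and 13.2% against 19.4% and 18.2% (-5.92 points, adjusted p = 0.0160), with 19 of 21 shared CpGs lower. This call was lost without YP-mESC replicate 1 (-5.30 points, adjusted p = 0.327) or OP-mESC replicate 1 (-5.53 points, adjusted p = 0.246), and with limma on logits (adjusted p = 0.119). In OP-S33Y #1 exon 1A was at 11.7% and 15.0% (-5.42 points, adjusted p = 0.227, pooled-read interval -7.61 to -0.344). In the whole genome, 22.8% of 52299 windows were called in OP-mESCs, nearly all lower, with a median difference of -3.43 points, and 5.46% of 78899 in OP-S33Y #1 (2.26% higher and 3.21% lower). Of the windows at Gnas, 2 of 11 were called in OP-mESCs and 2 of 15 in OP-S33Y #1, all lower. The 2 in OP-mESCs were in Nesp and at the 3' edge of exon 1A, and those in OP-S33Y #1 were in Nesp. The Gnas promoter did not pass in either (adjusted p = 0.660 and 0.984).

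The Gnasxl segment was set beside the other ICRs of the study's list, read by the same rule. In YP-mESCs 6 of the 16 others with a value in both replicates lay above Gnas, and in OP-mESCs 2 of 11, where the others had a median of 26.1% and Gnas 39.7%. A further 6 ICRs had a value in a single OP-mESC replicate, all below Gnas at 0% to 22.6%, and with them the median of the others was 4.22%. In OP-S33Y #2, 2 of 17 lay above it, and 4 of them were above 80%. The rise of 51.1 points from YP-mESCs exceeded those of all 16 others, whose median was 3.64 points and whose highest was 48.6 points. In the other 7 comparisons between 3 and 11 of the others lay above the difference at Gnas. These ranks describe the list, and the rank in OP-S33Y #2 is among the values for which the locus was proposed.

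**Figure D3:**
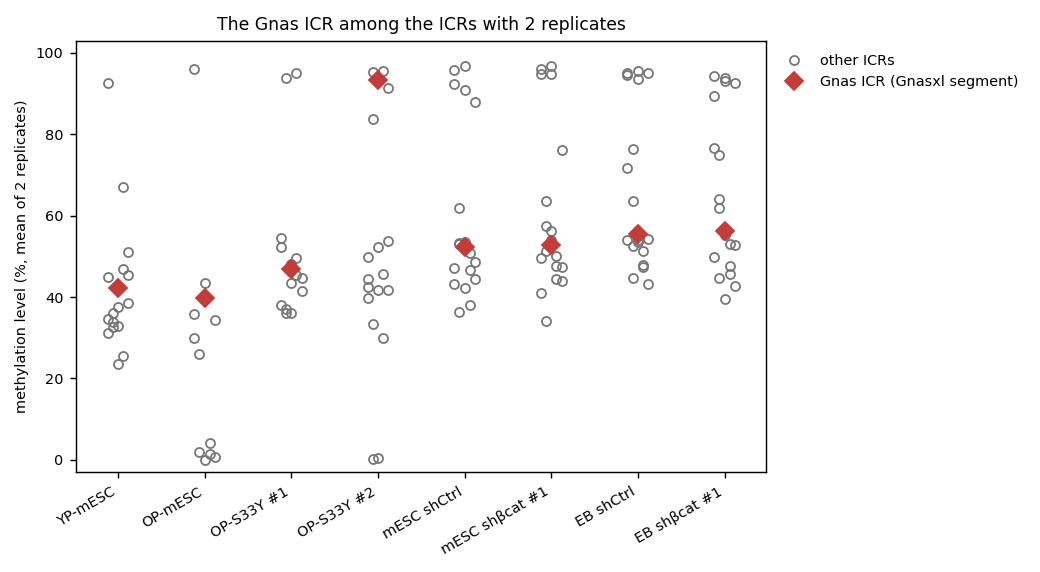
Methylation level of the Gnas ICR (filled diamond) and of the other ICRs with a value in both replicates (open circles) on the y axis (percent, mean of 2 replicates) in the 8 conditions (x axis). Gnas lies within the range of the others in all 8 conditions, in OP-S33Y #2 at 93.3% with 2 others above it.

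The differentiation of shRNA-transduced mESCs into EBs moved Nesp and exon 1A, and both in the same direction although their imprints are opposite. In shCtrl, Nesp went from 5.28% and 4.91% in mESCs to 26.9% and 26.6% in EBs (21.6 points, adjusted p = 4.32e-13), and exon 1A from 14.6% and 14.2% to 51.9% and 46.2% (34.7 points, adjusted p = 7.51e-13). In shβcat #1, Nesp went from 3.15% and 4.11% to 33% and 26.9% (26.3 points, adjusted p = 7.24e-16), and exon 1A from 17.9% and 14.8% to 46.0% and 46.2% (29.7 points, adjusted p = 6.51e-12). Every EB library lay above every mESC library in both segments. All 38 Nesp CpGs and all 28 exon 1A CpGs covered in both conditions of shCtrl were higher in EBs, with median differences of 19.7 and 36.0 points. In shβcat #1 the same held for all 39 and all 29.

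In EBs, exon 1A CpGs left the low end of the scale. Below 20% were 22 of 29 and 22 of 30 CpGs in the mESC shCtrl replicates and 0 of 28 and 1 of 30 in the EB shCtrl replicates. Of the Nesp CpGs, 16 of 49 and 18 of 41 stayed below 20% in EBs of shCtrl. The 4 Nesp CpGs that all libraries covered rose from 2.15% ± 0.08 to 24.0% ± 6.5, so that the rise included the CpGs close to the start.

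Gnasxl changed little in comparison. It was 3.21 points higher in EBs of shCtrl (5.58 in pooled reads, interval 1.18 to 9.97, adjusted p = 0.0543). In EBs of shβcat #1 it was 3.54 points higher (4.66 in pooled reads, interval 0.690 to 8.64, adjusted p = 0.0509), just outside the threshold each time. Without EB shCtrl replicate 1 the first was called (5.86 points, adjusted p = 0.00581), and without EB shβcat #1 replicate 1 the second (7.87 points, adjusted p = 0.000804). The promoter did not pass (adjusted p = 0.716 and 0.316). In the whole genome 26.5% of windows were called in shCtrl and 45.2% in shβcat #1. At Gnas these were 9 of 16 and 9 of 17, all higher, namely the 4 Nesp windows, the 3 exon 1A windows, 1 Gnasxl window and 1 in the body of Gnas. The Gnasxl window was not the same one, and started at 174126000 in shCtrl (adjusted p = 0.0280) and at 174125000 in shβcat #1 (adjusted p = 0.0259). The last, which starts at 174160000 with 4 CpGs in all libraries, went from 48.3% ± 5.4 to 83.0% ± 2.7 in shCtrl and from 48.6% ± 0.01 to 89.1% ± 4.6 in shβcat #1. It was at 57.7% ± 2.5 in YP-mESCs and 51.0% ± 7.2 in OP-S33Y #2. The windows at 174163000 and 174170000 were at 78.1% or more in every library that covered them. More cells with a mark and more marked alleles per cell cannot be told apart in these EBs, nor can the cell types that they hold.

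**Figure D4:**
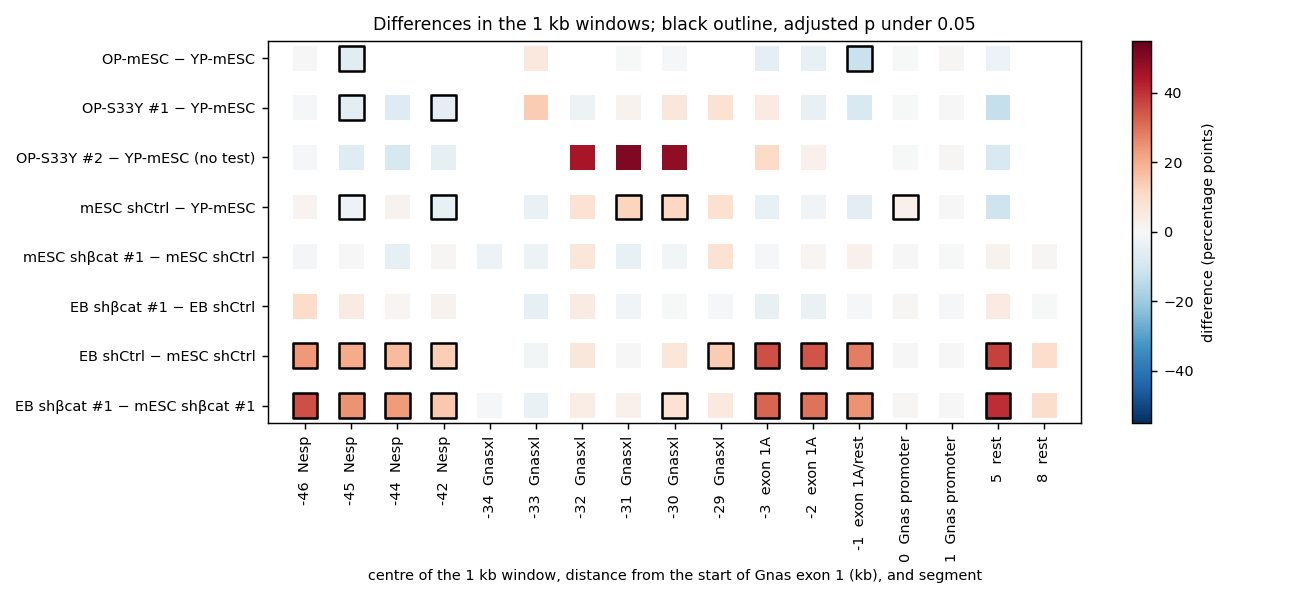
Difference in the percentage of methylated reads (colour, percentage points) in each 1 kb window of the region (x axis, distance of the window's centre from the start of Gnas exon 1 in kb, and segment) for the 8 comparisons (y axis); black outlines mark an adjusted p under 0.05. Nesp, exon 1A and 1 window of the Gnas body are outlined in both EB comparisons, and the 3 Gnasxl windows of OP-S33Y #2 are the darkest.

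The knockdown of β-catenin was compared with the control shRNA at each stage. In mESCs, Nesp was at 3.15% and 4.11% with shβcat #1 and at 5.28% and 4.91% with shCtrl (adjusted p = 0.807). Gnasxl was at 50.8% and 54.7% against 52.7% and 51.7% (adjusted p = 0.937), and exon 1A at 17.9% and 14.8% against 14.6% and 14.2% (adjusted p = 0.819). In EBs, Nesp was 3.20 points higher with shβcat #1 (adjusted p = 0.0590), Gnasxl 0.913 points higher (adjusted p = 0.983) and exon 1A lower, at 46.1% ± 0.2 against 49.1% ± 4.0 (adjusted p = 0.172). In the pooled reads that were tested, these differences were 5.22, -0.111 and -5.14 points, so that Gnasxl had no steady direction. None passed the threshold, but Nesp in EBs did when segments and windows needed 5 CpGs (adjusted p = 0.0418). The pooled-read interval for Gnasxl was -3.53 to 5.13 points in mESCs and -4.15 to 3.93 points in EBs. In EBs that for Nesp was 1.83 to 8.62 points and that for exon 1A -9.75 to -0.537 points. No window at Gnas was called at either stage, of 17 and 16 tested, beside 0.344% and 5.48% of all windows. The effect of the knockdown in EBs minus that in mESCs was 0.451 ± 0.223 (SE) on the log odds scale for Nesp and -0.320 ± 0.162 for exon 1A, and did not pass the threshold for any segment (adjusted p = 0.277, 0.896, 0.289 and 0.893 for Nesp, Gnasxl, exon 1A and the promoter, Wald test with the moderated dispersion), while 0.423% of all windows did.

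The mESCs of shCtrl were also set beside YP-mESCs, as the 2 controls of the series. The shRNA libraries differed as a set from the others, as the strands below show, so that transduction and library set cannot be told apart here. Gnasxl was higher, at 52.7% and 51.7% against 44.0% and 40.4% (11.6 points in pooled reads, interval 6.85 to 16.4, adjusted p = 0.000301), a call that limma on logits did not make (adjusted p = 0.0994). The dispersion of Gnasxl was 13.3 before moderation and 5.32 after, so that the first test assumes less spread than the Gnasxl reads show. Nesp did not pass as a segment (-0.673 points, adjusted p = 0.105, pooled-read interval -3.60 to -0.121), and neither did exon 1A (-4.39 points, adjusted p = 0.173). The Gnas promoter was at 3.23% and 1.92% against 0.207% and 0.329% (2.31 points, adjusted p = 5.67e-06). In the whole genome 29.2% of windows were called, mostly higher, with a median difference of 3.11 points. At Gnas 5 of 15 were called, of which 2 in Gnasxl and 1 in the promoter were higher and 2 in Nesp were lower. The Nesp windows started at 174110000 (-3.34 points, adjusted p = 0.0448) and 174113000 (-4.68 points, adjusted p = 0.0136).

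The higher promoter level lay in a few CpGs on 1 strand. Of 20 covered promoter CpGs inside the sequence CCGG, 8 had a strand with a median above 5% over the 8 shRNA libraries. No call on any of the 20 exceeded 5.56% in the other 8 libraries, which made no call at 174155161, 174155948 or 174156121. On the strands picked for their shRNA values, all 31 calls in those libraries were at 0%. The strands with the highest shRNA medians, at 174155161 (77.8%), 174155389 and 174155948 (both 100%), had 1 of these calls between them, so that the other 5 strands carry the comparison. At 174155342 the reverse strand had a median of 40.4% and a highest value of 61.2% in the 8 shRNA libraries, while the forward strand had 0% in all 7 of them that covered it. At 174155389 the forward strand had 85.7% to 100.0% in 5 shRNA libraries and the reverse strand 0% in 7. Without the CpGs in CCGG the promoter was at 0.123% ± 0.137 in mESCs of shCtrl and at 0.248% ± 0.043 in YP-mESCs, a difference of -0.124 points (adjusted p = 0.946), and between 0.123% and 0.535% in all 8 conditions. CCGG is the sequence cut by MspI, an enzyme in common use for RRBS, and the enzyme is not given in the sources used here. Over the genome, the strands of a CpG in CCGG differed by more than 25 points in 16.9% to 39.9% of cases in the shRNA libraries and in 7.55% to 28.6% in the others, against 0.531% to 1.64% elsewhere in any library. The part of these strand differences in other values was not tested beyond leaving the CpGs out. Without them Gnasxl was at 95% ± 1.6 in OP-S33Y #2 and 42.5% ± 3.0 in YP-mESCs, Nesp was at 26.5% ± 0.6 and exon 1A at 45.5% ± 5.5 in EBs of shCtrl, and Gnasxl stayed higher in mESCs of shCtrl than in YP-mESCs (adjusted p = 0.000547).

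**Figure D5:**
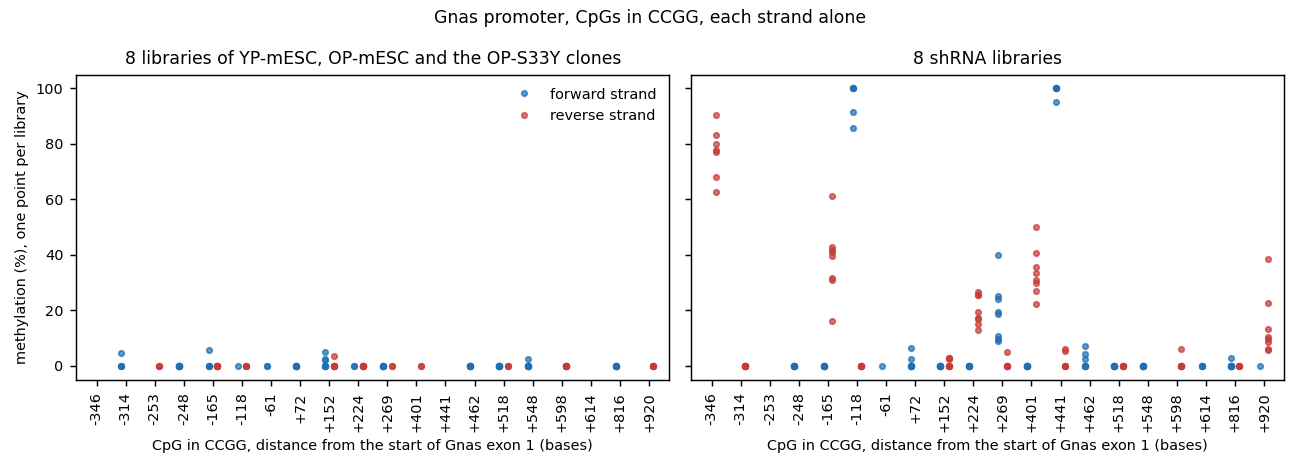
Methylation of each promoter CpG in CCGG on each strand alone (y axis, percent, 1 point per library) against its distance from the start of Gnas exon 1 (x axis, bases), for the 8 libraries without shRNA (left) and the 8 shRNA libraries (right). The 8 CpGs have points well above 0 on 1 strand in the shRNA libraries, and no point exceeds 5.56% in the others.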

How the data were processed

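Reduced representation bisulfite sequencing (RRBS) of 16 libraries, 8 conditions with 2 replicates, was analysed. Per the labels and the methods, the authors trimmed reads (CASAVA 1.8.2, Trim Galore 0.2.8) and aligned them to mm9 with Bismark 0.7.9. The deposited files hold a read count and a percent methylated per cytosine, unnormalized, none under 10 reads. The reads summed over CpGs ranged from 18919219 to 40519010, and the CpGs covered from 413282 (OP-mESC replicate 2) to 1152971. YP-mESC replicate 2 had no CpGs on chromosome 13, so that the genome shares against YP-mESCs leave that chromosome out. Reads that span several CpGs count at each, so that intervals cover less than the true error. Handling of duplicate reads was not given in the sources used here.

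The 2 strands were summed. A segment's level was the mean percentage of its CpGs (at least 2). Segment differences in points are of these levels unless pooled reads are named, whereas the p-values test summed reads, whose difference can vary from them. Segments and 1 kb windows of the genome were tested together with a quasi-binomial model of summed reads in R 4.3.3, with the dispersion moderated across windows by squeezeVar of limma 3.58.1, F tests and Benjamini-Hochberg adjustment in each comparison, called at 0.05. The dispersion came from all 16 libraries. For Gnasxl moderation lowered it from 13.3 to 5.32, so that all Gnasxl tests and intervals assume less spread than its own reads show. The test was checked on simulated reads, in which the changed windows were of intermediate level. The check therefore does not cover changes at levels as low as those of Nesp in mESCs and the promoter. Its simulated dispersion was mostly lower than the 13.3 of Gnasxl. An exact permutation test of 2 against 2 cannot go below 0.33. The segments, windows, the hexanucleotide CpG covered in all 16 libraries and the highest and lowest CpGs of each segment were named by rule, and other CpGs after their values were seen. The members and lists were chosen with earlier results of these data known.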

Additional observations from a re-analysis of the deposited data

Results flagged for a closer look

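In the Gnas promoter, the strands of a CpG differed by more than 25 points in 26 of the 527 cases in which a library covered both strands, a signal in the strand values that the summed levels do not use. All 26 were CpGs in CCGG, of which 77 cases had both strands covered. In Gnasxl 81 of 404 cases differed, 55 of them in CCGG. The cause was not tested.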

How the results depend on the processing

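Over all alternatives, 514 values kept their direction and side of the threshold or stayed within their spread or, for counts of windows, within a set ratio. Of the rest, 19 moved further, 9 became called, 8 lost the call and 1 reversed. With only the CpGs that all 16 libraries covered, the Nesp differences from YP-mESCs were -0.0214 points in OP-mESCs, -0.998 in OP-S33Y #1 (both no longer called) and -0.953 in OP-S33Y #2, the OP-mESC exon 1A difference was -6.92 (not called), the promoter difference of OP-S33Y #2 was 0.388, and the windows called at Gnas were 0 in OP-mESCs, 0 in OP-S33Y #1, 2 in mESC shCtrl against YP-mESCs and 4 in each EB comparison. With 20 reads per CpG, exon 1A differed by -4.80 in OP-mESCs (not called) and 17.1 in OP-S33Y #2, Nesp in shCtrl against YP-mESCs by -2.32 and Gnasxl in EBs of shCtrl by 5.79 (both called), and 1 window was called in OP-mESCs. In narrow segments the Nesp difference was -3.94 in OP-S33Y #2 and -2.27 in shCtrl (called), and that of exon 1A in OP-S33Y #2 was 0.531. With limma on logits, exon 1A in OP-mESCs (-5.92) and Gnasxl in shCtrl against YP-mESCs (10.001) were not called, and 1 and 2 windows were. Leaving out CCGG, an alternative chosen after seeing the data, the promoter difference of shCtrl from YP-mESCs was -0.124, reversed and not called, Nesp there was -0.723 and Gnasxl in EBs of shCtrl 2.84 (both called), and 3 windows were called. With 5 CpGs, Nesp in EBs of shβcat #1 against EBs of shCtrl (3.20) was called, and without the deepest CpGs so was Gnasxl in EBs of shβcat #1 against its mESCs (3.54).

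Leaving out each replicate in turn, exon 1A in OP-mESCs ranged from -6.54 to -5.30, Gnasxl in EBs from 0.556 to 5.86 in shCtrl and from -0.781 to 7.87 in shβcat #1, and the windows called from 1 to 2 in OP-mESCs, 2 to 4 in shCtrl against YP-mESCs and 0 to 1 in EBs of shβcat #1 against EBs of shCtrl. In these fits a lone library is assumed to vary like the others. Same-numbered replicates deviated together with a correlation of -0.0981 to 0.106 over windows. A batch that does not follow the replicate number was not tested, and a block on that number cannot take it up. With the replicate block no segment call changed side, for example Gnasxl in shCtrl against YP-mESCs (adjusted p = 0.00286). All 35 calls and counts were classed as unchanged, where a count of windows may vary within a set ratio. The windows called went from 5 to 4 in shCtrl against YP-mESCs and from 9 to 8 in EBs of shCtrl. The block was not run for the difference of the knockdown effects. Except in these cases the cause was not tested beyond the fewer CpGs or libraries that each alternative uses. Depth limits the Gnasxl level of OP-S33Y #2 replicate 2, which rests on 21 CpGs.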
